A study of Mus musculus with 8 samples.

Results

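The cell cycle arrest and DNA damage response genes described here are 10 named genes, Trp53, Mdm2, Cdkn1a, Gadd45a, Gadd45b, Gadd45g, Btg1, Btg2, Ccnd1 and Myc, out of 55341 gene symbols with an annotated transcription start site (TSS) in GENCODE M21 on mm10. They were chosen by name, as known genes of these pathways, but with earlier results of these data known. No measured value enters the rule itself. H3K27ac, the acetylation of lysine 27 of histone H3, marks active promoters and enhancers. It was profiled by ChIP-seq in mouse primary hepatocytes (MPH) from adult male C57Bl6 WT mice (C57BL/6J in the study's methods), kept in serum-free William's medium. Cells received 1 µM thapsigargin, which blocks the calcium pump of the endoplasmic reticulum (ER) and so causes ER stress, or the vehicle, 0.04% DMSO, both for 4 h. Each treatment had 3 H3K27ac libraries and 1 input library. The regions were deposited as 3 lists, 5508 with more H3K27ac after thapsigargin (UP), 3376 with less (DOWN) and 23312 unchanged. Unchanged regions are those that did not pass the authors' false discovery rate (FDR) limit. A region in that list beside one in another does not show that the changes of the pair differed. The lists hold positions alone, with no count, signal or FDR for a region or a library, so the depth is unknown and no value below has an error between preparations. Cultures of this kind can hold other liver cells: 8 of 8 hepatocyte markers had a TSS in a region, against 4 of 25 markers of Kupffer, endothelial, stellate and biliary cells and lymphocytes (Cd68, Stab2, Sox9 and Spp1). The part of such cells in the results was not tested. In a bulk culture, less H3K27ac per cell and fewer cells that carry it cannot be told apart.

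As background, p53 (encoded by Trp53) is a transcription factor that is held low by the ubiquitin ligase MDM2 and accumulates when DNA is damaged. Among its best known targets are Mdm2 itself, in a negative feedback loop, and Cdkn1a, whose product p21 inhibits cyclin-dependent kinases. GADD45 proteins are small stress sensors that bind cell cycle and MAP kinase partners, BTG1 and BTG2 are antiproliferative proteins that act on mRNA deadenylation, and cyclin D1 and MYC drive entry into the cycle. ER stress also slows the cycle, largely through the kinase PERK and the transcription factors ATF4 and CHOP, which bind a shared composite motif. In the adult liver, hepatocytes are mostly quiescent and re-enter the cycle after injury.

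Of the 10 genes, 9 had at least one TSS inside an H3K27ac region. Gadd45a and Myc had their TSSs in UP regions, Mdm2 and Btg2 in DOWN regions, and Cdkn1a, Gadd45b, Gadd45g, Btg1 and Trp53 in unchanged regions alone, whereas no TSS of Ccnd1 lay in a region. Some region held a TSS of 12261 genes, of which 21.4% were UP at a TSS, 8.91% were DOWN, and 70.1% had unchanged regions alone. A count of 2 UP genes among 9 is near that background. The count of 2 DOWN genes is set below beside the DOWN shares of genes with TSS regions of like width, with no test. Having a TSS in a region at all was the case for 44.7% of 21924 protein-coding genes. In all, 33 of the 41 distinct TSSs of the members lay in a region. The p53 targets Mdm2 and Cdkn1a fell in different lists, and so did the paralogs Gadd45a and Gadd45b and the paralogs Btg1 and Btg2.

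**Figure D1:**
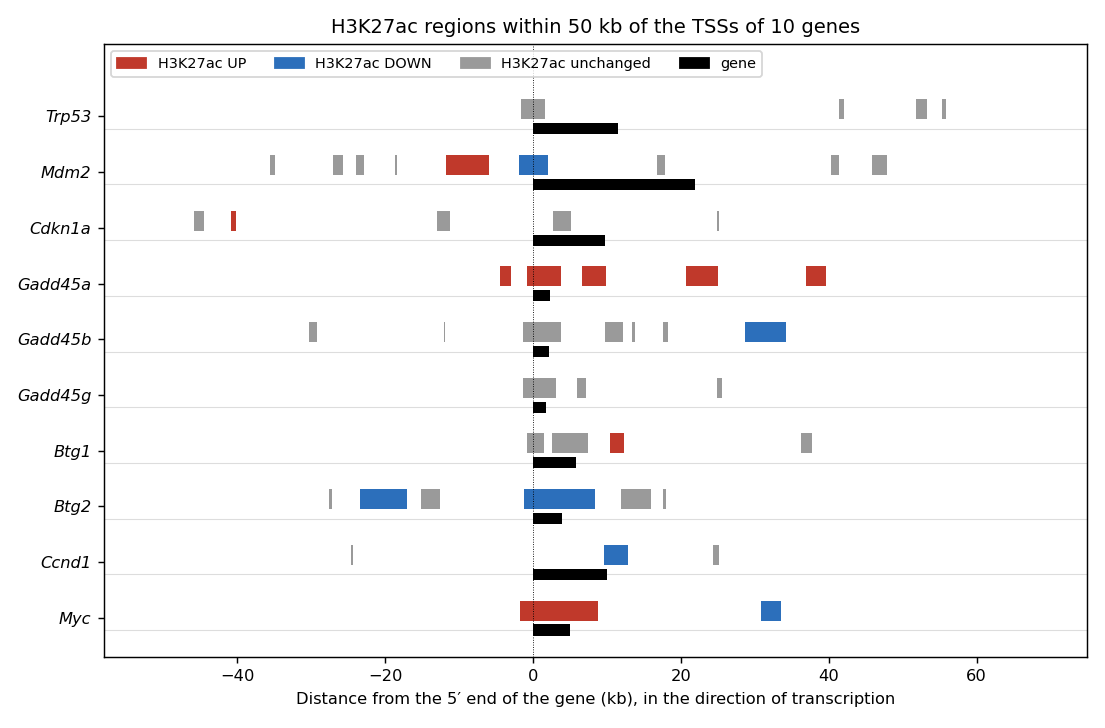
Positions of the 48 H3K27ac regions within 50 kb of the TSSs of the 10 genes, drawn to scale as distance (kb) from the annotated 5′ end of each gene in its direction of transcription; coloured boxes are regions by list and black bars are the genes. Gadd45a is the gene with UP regions alone, and the UP and DOWN regions of Mdm2 lie side by side upstream of and over its 5′ end.

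The promoters are shown for the genes on which these contrasts rest. Each is the 250 bases before a RefSeq start (GRCm38.p6), read in the direction of the gene, with matches to 6 motifs in capitals. The motifs, searched on both strands, were the p53 response element (a pair of half-sites), AP-1 (TGANTCA), the cyclic AMP response element CRE (TGACGTCA), the ATF4/CHOP composite (TGATGNAA), the E-box bound by MYC and MAX (CACGTG) and the ER stress response element ERSE. Each p53 half-site was RRRCWWGYYY (R is A or G, W is A or T, Y is C or T), and the pair could lie a short gap apart. Every base of both half-sites had to match. Entries were found for 8 members and equalled the genome in 9 of 9 windows. No promoter is printed for Myc or Ccnd1.

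The upstream Cdkn1a promoter and that of Btg2 are shown because each holds a match, the p53 response element and the CRE respectively. In Cdkn1a the capitals include the gap between the matched half-sites. The bases right after the capitals would form a further half-site but for their first base, and stay in lower case.
Cdkn1a (chr17:29090729-29090978, + strand): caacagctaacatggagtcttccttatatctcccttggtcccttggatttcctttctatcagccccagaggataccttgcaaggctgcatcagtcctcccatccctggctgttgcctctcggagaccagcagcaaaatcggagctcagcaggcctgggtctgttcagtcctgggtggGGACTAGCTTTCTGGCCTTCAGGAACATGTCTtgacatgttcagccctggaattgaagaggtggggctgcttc
Btg2 (chr1:134079156-134079405, - strand): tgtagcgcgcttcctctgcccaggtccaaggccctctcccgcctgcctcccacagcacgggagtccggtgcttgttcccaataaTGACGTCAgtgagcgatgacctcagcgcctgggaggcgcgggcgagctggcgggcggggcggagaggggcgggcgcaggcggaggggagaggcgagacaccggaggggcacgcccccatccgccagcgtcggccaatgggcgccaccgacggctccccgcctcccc

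The GADD45 trio is shown because its members fell in different lists although each gene lay whole in 1 region.
Gadd45a (chr6:67037408-67037657, - strand): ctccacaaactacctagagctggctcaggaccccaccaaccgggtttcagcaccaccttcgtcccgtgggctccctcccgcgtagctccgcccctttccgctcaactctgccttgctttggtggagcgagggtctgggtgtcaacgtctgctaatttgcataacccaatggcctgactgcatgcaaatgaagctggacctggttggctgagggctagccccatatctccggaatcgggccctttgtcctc
Gadd45b (chr10:80929841-80930090, + strand): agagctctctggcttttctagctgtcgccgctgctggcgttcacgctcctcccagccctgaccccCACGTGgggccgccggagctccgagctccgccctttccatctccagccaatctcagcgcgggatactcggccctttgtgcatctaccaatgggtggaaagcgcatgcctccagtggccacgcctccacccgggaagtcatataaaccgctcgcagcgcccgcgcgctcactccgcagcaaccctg
Gadd45g (chr13:51846425-51846674, + strand): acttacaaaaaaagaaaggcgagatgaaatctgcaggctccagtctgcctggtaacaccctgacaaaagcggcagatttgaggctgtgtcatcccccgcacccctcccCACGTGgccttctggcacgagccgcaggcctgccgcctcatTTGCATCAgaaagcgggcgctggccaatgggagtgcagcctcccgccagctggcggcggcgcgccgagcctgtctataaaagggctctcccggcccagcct

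In windows of 300 bases (250 before and 50 after the start), the p53 response element was found in 0.0731% of all 32851 RefSeq promoters, the CRE in 1.79%, the E-box in 7.15% and the ATF4/CHOP composite in 3.97%. Among the members, Cdkn1a alone matched the first, with the first base of the match at position -73 of its upstream start. Btg2 alone matched the CRE, at -166. Gadd45g held an ATF4/CHOP match at -101 and an E-box at -142, Gadd45b an E-box at -185 and Trp53 an E-box 10 bases after its start. The windows of Gadd45a, Mdm2 and Btg1 and the downstream window of Cdkn1a held no match to any of the 6. A match describes letters and was not tested for binding, and a window without one says nothing of the factor.

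Trp53, the gene of p53 itself (chr11:69580359-69591873, + strand), carried no changed region within 50 kb. Its promoter lay in an unchanged region of 3177 bp (chr11:69578757-69581933) that held 3 of its 4 distinct TSSs and 13.7% of the gene. That region also held TSSs of Wrap53, a telomerase RNA factor transcribed the other way, so its class cannot be given to one of the pair. The other 3 regions within 50 kb, of 590 to 1587 bp, were unchanged too and lay in Sat2 and Fxr2. The nearest UP region was 163721 bp away and the nearest DOWN region 176841 bp.

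Mdm2 (chr10:117688875-117710758, - strand) had a DOWN region over its promoter and an UP region just upstream. The DOWN region (chr10:117708778-117712626) was 3849 bp wide and held 7 of 8 distinct TSSs. It reached 1868 bp beyond the 5′ end and covered 1981 bp of the gene, 846 of them exonic and 1135 intronic. The UP region (chr10:117716709-117722463) began 5951 bp upstream of the nearest TSS, in sequence annotated to no gene, and Mdm2 was its nearest protein-coding gene. At 5755 bp it was wider than 94.0% of UP regions. A gap of 4082 bp separated the DOWN and UP regions. Of the 928 DOWN regions that held a TSS, 7.11% had an UP region within 10 kb. The other 7 regions within 50 kb were unchanged, 1 of them intronic in Mdm2 (1134 bp) and the others in or near Cpm and Slc35e3, so that 9 regions in all surrounded Mdm2, the most of any member.

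Cdkn1a (chr17:29090976-29100727, + strand), encoding p21, had no changed region at any TSS. An unchanged region of 2508 bp (chr17:29093642-29096149) held the 2 middle ones of its 5 distinct TSSs and 25.7% of the gene. The region was shared with AC167363.2, an experimentally unconfirmed transcript. The pair of upstream TSSs, at 29090976 and 29090979, lay in no region, 2663 to 2666 bp from the edge of the unchanged one, and the promoter with the p53 response element printed above belongs to them. None of the 48 regions around the 10 genes held a full match to that element. Sites that differ at a base were not searched, so this does not show that the regions lack p53 sites. Full matches were found at 0.00304 per kb of UP regions, 0.00533 per kb of DOWN and 0.00318 per kb of unchanged regions. The TSS of Trp53cor1, a p53-induced long noncoding RNA also known as lincRNA-p21, lay in an unchanged region of 1787 bp, 11199 bp upstream of Cdkn1a. The only UP region of the locus was narrow, 700 bp wide (chr17:29050131-29050830), 40146 bp upstream and nearer to Srsf3, a splicing factor gene, from which it was 17503 bp away. The nearest DOWN region was 571342 bp away.

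The GADD45 genes gave a different picture each. Gadd45a (chr6:67035096-67037457, - strand) was surrounded by 5 UP regions and no other region within 50 kb. The one over the gene (chr6:67033602-67038281, 4680 bp) held all 7 distinct TSSs and 100% of the gene, reaching 824 bp beyond its 5′ end and 1494 bp beyond its 3′ end. That region also held a TSS of the noncoding transcript E230016M11Rik. One UP region of 1450 bp lay upstream, 2947 bp from the nearest TSS. The other 3 lay downstream, with widths of 3171, 4262 and 2672 bp at 6419, 20445 and 36716 bp from a TSS. The last pair lay inside Gng12, a G protein subunit gene, and one of them held the TSS of the pseudogene Gm15644, yet Gadd45a had the nearest protein-coding TSS to all 5. Together they covered 16235 of the 44055 bp between the outermost edges. Among 21924 protein-coding genes, 95 (0.433%) had at least 5 UP regions within 50 kb, and Gadd45a was among 5 of these with no region of another list there. The nearest DOWN region was 3833575 bp away.

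The 5 UP regions of Gadd45a held 7 matches to the ATF4/CHOP composite, in 4 regions. Each is printed on the + strand with its flanks and the match in capitals, with its distance from the 5′ end, in order from the farthest downstream to the upstream one. The sixth lies in the 3′ UTR of Gadd45a and is printed with shorter flanks.
22444 bp downstream (chr6:67014990-67015037): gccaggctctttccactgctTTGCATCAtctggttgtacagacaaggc
22092 bp downstream (chr6:67015342-67015389): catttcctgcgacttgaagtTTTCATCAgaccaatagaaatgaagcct
9010 bp downstream (chr6:67028424-67028471): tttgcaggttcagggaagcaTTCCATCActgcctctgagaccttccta
7251 bp downstream (chr6:67030183-67030230): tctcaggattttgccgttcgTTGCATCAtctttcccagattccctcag
2778 bp downstream, beyond the 3′ end (chr6:67034656-67034703): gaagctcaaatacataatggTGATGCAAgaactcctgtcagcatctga
1888 bp into the gene (chr6:67035556-67035583): tctgtaatccTTGCATCAgcgtggggag
3650 bp upstream (chr6:67041084-67041131): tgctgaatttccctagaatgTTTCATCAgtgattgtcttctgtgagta

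Of the 7, 4 read TGATGCAA or its reverse complement, the form with C at the open position. The regions of 4262, 3171 and 4680 bp held 2 matches each and the region of 1450 bp held 1. Regions within 10% of those widths held at least one match in 46.4%, 38.1%, 49.7% and 21.4% of cases, so single matches are common in regions of this size. The composite was found at 0.215 matches per kb over all UP regions, 0.147 per kb over DOWN and 0.148 per kb over unchanged regions. Matches also lay in other regions around the members. Of the unchanged ones, the region over Gadd45g held 2. The unchanged regions at the promoter of Trp53 (3177 bp), at Trp53cor1 (1787 bp) and in Slc35e3 near Mdm2 (1373 bp) held 1 each. The DOWN regions of Btg2 held 3 and 1, the DOWN and UP regions of Mdm2 1 each and the DOWN region of Ccnd1 1. The Gadd45b, Btg1 and Myc regions held no match to the composite. Each UP region of Gadd45a also held AP-1 matches, 4 in the region of 4262 bp and 2 in each of those of 3171 and 1450 bp. The regions of 2672 and 4680 bp held 1 AP-1 match each. Over all UP regions AP-1 was more frequent than the composite, at 0.586 matches per kb, so the composite does not set Gadd45a apart from AP-1.

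Gadd45b (chr10:80930073-80932204, + strand) lay whole in an unchanged region of 5139 bp (chr10:80928668-80933806) with its 3 distinct TSSs. Of the 7 regions within 50 kb, 6 were unchanged and 1 was DOWN. The DOWN region was 5572 bp wide (chr10:80958746-80964317) and lay 27934 bp downstream inside Gng7, another G protein subunit gene, with Gadd45b as its nearest protein-coding TSS. The nearest UP region was 162277 bp away. Gadd45g (chr13:51846678-51848468, + strand) also lay whole in an unchanged region, of 4514 bp (chr13:51845282-51849795), and the other 2 regions, of 1214 and 701 bp, were unchanged. The 3 paralogs thus had regions of close width over the whole gene, 4514 to 5139 bp, of which that of Gadd45a was UP and the others were unchanged. Whether the size of their changes differed was not tested. The summed width of regions around them was 16235 bp UP for Gadd45a, 5572 bp DOWN and 10056 bp unchanged for Gadd45b, and 6429 bp unchanged for Gadd45g.

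**Figure D2:**
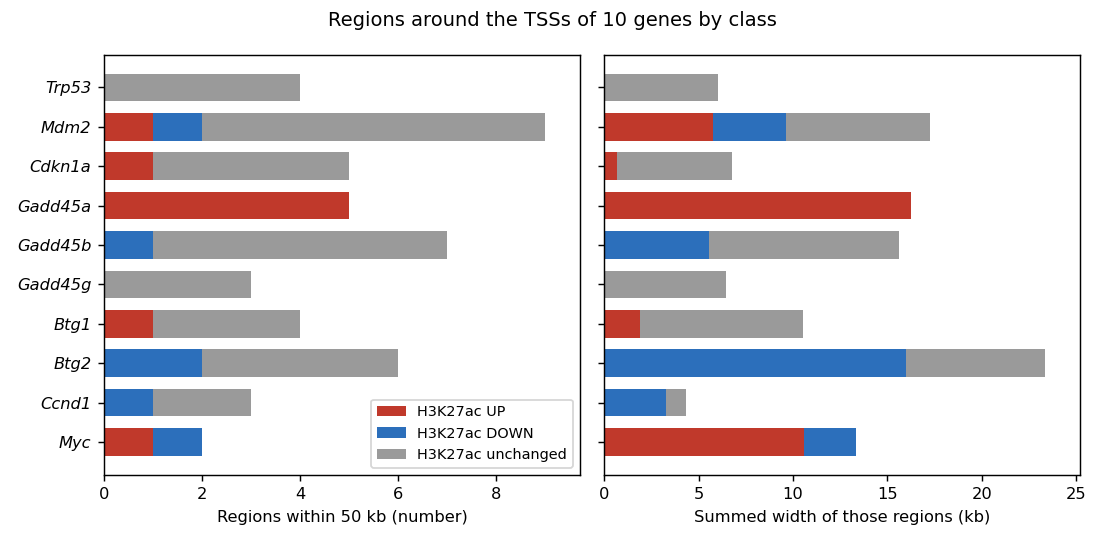
Number (left) and summed width in kb (right) of H3K27ac regions within 50 kb of the TSSs of each gene, stacked by list. Gadd45a has 5 UP regions and no other, Mdm2 has 9 regions of which 7 are unchanged, and Trp53 and Gadd45g have unchanged regions alone.

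Btg2 (chr1:134075170-134079120, - strand) had the most DOWN sequence around it of any member. The gene lay whole in a DOWN region of 9680 bp (chr1:134070669-134080348), wider than 96.2% of DOWN regions. A second DOWN region of 6312 bp (chr1:134096148-134102459) lay 17028 bp upstream, held the TSS of the unconfirmed transcript Gm38140 and was nearer to Chit1, a chitinase gene, from which it was 8783 bp away. Together they made 15992 bp of DOWN sequence, beside 4 unchanged regions, and the nearest UP region was 124964 bp away. The CRE of the promoter printed above lies in the wider DOWN region. That region held no AP-1 match, although 96.6% of the 207 regions within 10% of its width held one. The upstream DOWN region held a match to the ERSE, which 0.766% of the 522 regions of like width did, shown here on the + strand with the match in capitals.
Btg2 upstream DOWN region (chr1:134100562-134100620): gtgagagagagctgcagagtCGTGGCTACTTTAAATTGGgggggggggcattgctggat

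Btg1 (chr10:96617006-96622809, + strand), the paralog of Btg2, had unchanged regions over the gene. Its 2 distinct TSSs lay in one of 2231 bp (chr10:96616225-96618455). A second one, of 4867 bp (chr10:96619617-96624483), covered 3193 exonic bp at the 3′ end, and together they covered 80.0% of the gene. An UP region of 1921 bp (chr10:96627422-96629342) lay 9868 bp downstream in sequence annotated to no gene. The nearest DOWN region was 305258 bp away. The 2 paralogs therefore fell in different lists at the gene, unchanged against DOWN. The distal changed region was UP for Btg1 and DOWN for Btg2, but that of Btg2 was nearer to Chit1 and cannot be given to Btg2. Whether the size of the changes at the 2 genes differed was not tested.

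The drivers of the cycle, Ccnd1 and Myc, were also listed differently. Myc (chr15:61985391-61990374, + strand) lay whole in the widest region of any member, an UP region of 10583 bp (chr15:61983596-61994178) that held all 6 distinct TSSs and reached 1795 bp beyond the 5′ end and 3804 bp beyond the 3′ end. It was wider than 98.5% of UP regions. This region held 7 AP-1 matches and no ATF4/CHOP match, where 96.6% and 76.2% of the 147 regions of like width held at least one. Those shares do not weigh the number of matches. Over all UP regions AP-1 was found at 0.586 matches per kb, so several are common in a region this wide. A DOWN region of 2770 bp (chr15:62016232-62019001) lay 28810 bp downstream, 22053 bp from the edge of the UP region, in sequence annotated to no gene. Of the 2047 UP regions that held a TSS, 21.2% had a DOWN region within 50 kb.

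Ccnd1 (chr7:144929931-144939925, - strand), encoding cyclin D1, had its 3 distinct TSSs in no region. A DOWN region of 3258 bp (chr7:144927115-144930372) overlapped the 3′ end of the gene by 442 exonic bp, ran 2816 bp beyond it and lay 7825 bp from the nearest TSS. The region also overlapped the neighbour LTO1, whose TSS was 9452 bp away. The remaining 2 regions, of 858 and 228 bp, were unchanged, and the nearest UP region was 170592 bp away. Regions that passed the authors' FDR limit with a mixed direction were left out of the lists, so whether the Ccnd1 promoter had no peak or such a region cannot be told apart.

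Over the 10 genes, the 48 regions within 50 kb were 9 UP, 6 DOWN and 33 unchanged. UP regions made 60.0% of the 15 changed ones, with an exact (Clopper-Pearson) 95% interval of 32.3% to 83.7% that covers counting error only and treats neighbouring regions of a locus as independent. Gadd45a alone gave 5 of the 9 UP regions, and without its regions 4 UP and 6 DOWN were left, an UP share of 40.0%. Over the whole series, 17.1% of the 32196 regions were UP and 10.5% DOWN. These were 5508 UP and 3376 DOWN regions, so UP regions made up most of the changed ones there too. Of the members, 5 had an UP region within 50 kb and 5 a DOWN one, where 34.6% and 20.5% of protein-coding genes did. Of the 12261 genes with a TSS in a region, 6499 had an UP region within 50 kb and 3917 a DOWN one. More UP than DOWN regions were found around Cdkn1a, Gadd45a and Btg1, as for 27.8% of protein-coding genes, and more DOWN than UP around Gadd45b, Btg2 and Ccnd1, as for 12.9%. Among genes with a TSS in a region those shares were 41.5% and 19.3%. Mdm2 and Myc had 1 of each. The members had 2 to 9 regions within 50 kb and a median of 4.5, against a median of 2.0 over protein-coding genes. Of those genes 44.7% had a TSS in a region, against 9 of the 10 members, so the medians do not compare like genes. Of the changed regions, 7 UP and 4 DOWN ones held no TSS of a member, so 11 of the 15 lay outside the members' promoters. Across the full lists, 2047 of the 5508 UP and 928 of the 3376 DOWN regions held a TSS of any gene. Most changed regions there held none either, so this is no trait of the members.

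Width bears on these classes. The 9 regions at the members' TSSs were 2231 to 10583 bp wide, with a median of 4514 bp, whereas the median over all regions that held a TSS was 2136 bp in the UP list, 3828 bp in the DOWN list and 1530 bp in the unchanged list. When genes were ranked into 10 groups of near-equal size by the width of their widest TSS region, the share with a DOWN region was 1.30% in the narrowest and 31.7% in the widest group, and the share with an UP region 9.28% and 28.5%. Gadd45a, Gadd45b, Gadd45g and Mdm2 fell in the ninth group, where 29.5% were UP and 18.8% DOWN. Btg2 and Myc fell in the tenth, and Btg1, Cdkn1a and Trp53 in the sixth to eighth, where 23.9% to 26.2% were UP and 6.27% to 11.4% DOWN. The part of width in the members' classes was not tested.

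**Figure D3:**
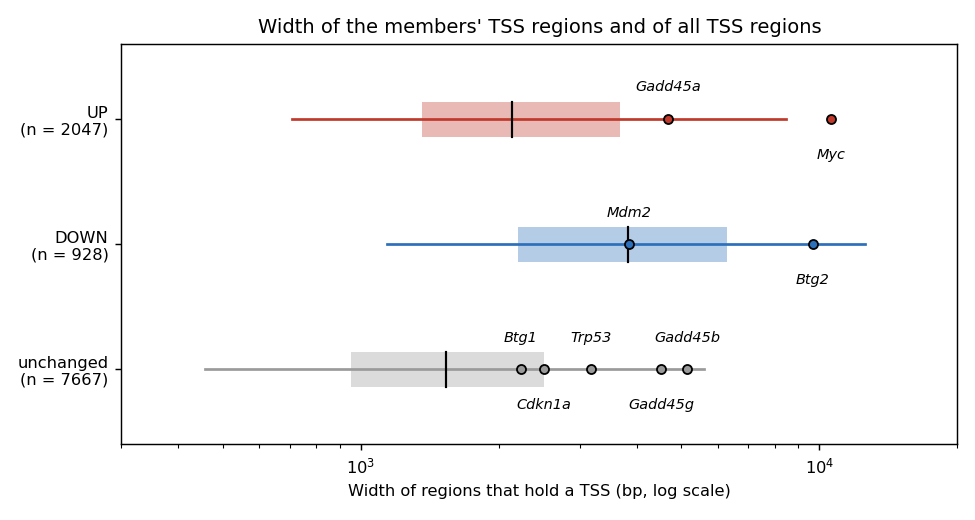
Width (bp, log scale) of H3K27ac regions that hold a TSS, by list, with the TSS regions of the 9 members that have one as labelled points; the box spans the quartiles, the black line is the median and the coloured line runs from the 5th to the 95th percentile of all such regions. Myc lies beyond the line of the UP list, Mdm2 lies at the median of the DOWN list and Btg2 above the box, and the 5 unchanged ones lie above the median of their list.

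Further genes of the same pathways were read the same way. Of 72, all annotated, 57 had a TSS in a region, with 19 UP (33.3%), 11 DOWN (19.3%) and 27 unchanged alone, beside 21.4% UP and 8.91% DOWN over all genes with a TSS in a region. These background shares are not matched for region width. Other p53 targets numbered 22, of which 21 had a TSS in a region. Among these, 7 (33.3%, beside 8.91% over all genes) were DOWN: Gdf15 (8029 bp), a stress cytokine; Bbc3 (7657 bp) and Bax (1184 bp), which promote apoptosis; Plk3 (6694 bp), a stress kinase; Ccng1 (1730 bp), cyclin G1; Ei24 (1529 bp), an ER protein; and Phlda3 (1009 bp), an AKT inhibitor. UP were 4 (19.0%, beside 21.4%), Trp53inp1 (9110 bp), Plk2 (5120 bp), the metabolic phosphatase Tigar (3137 bp) and Sesn2 (1804 bp), an inhibitor of mTORC1. The remaining 10 were unchanged, so p53 targets fell in all 3 lists.

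Regulators of p53 and damage signalling had 3 UP and 2 DOWN genes among 11 with a TSS in a region. These were 27.3% and 18.2%, beside 21.4% UP and 8.91% DOWN over all genes with a TSS in a region. UP were the ubiquitin ligases Rchy1 (4750 bp) and Cop1 (3048 bp) and Trp53bp1 (517 bp). DOWN were Usp7 (1609 bp), a deubiquitinase of MDM2, and Brca1 (7301 bp), which had a further TSS in an unchanged region, as Usp7 had. Other genes had a TSS in some of the regions named for these lists: Nbr1 in that of Brca1, Thap6 in that of Rchy1, Gm12981 in that of Sesn2, Lpar6 in that of Rb1, Plekha4 in that of Ppp1r15a, and Mbd6, Gm20492 and Gm4189 in that of Ddit3. The damage kinases Atm, Atr and Chek1 and the MDM2 relative Mdm4 were unchanged.

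Of the other CDK inhibitors, 3 of 6 had a TSS in a region, and of the other BTG and TOB genes 3 of 4. All were unchanged, as 70.1% of all genes with a TSS in a region were. Among 6 of 9 G1 cyclins and kinases with a TSS in a region, Ccne2 (1964 bp) and Cdk4 (1533 bp) were UP, Cdk6 (5471 bp) and Rb1 (2947 bp) DOWN and the others unchanged. UP and DOWN were thus 33.3% each, beside 21.4% and 8.91% over all genes. In the MYC network, where MAX is the shared partner and the MXD proteins and MNT oppose MYC, 6 of the 8 genes with a TSS in a region were UP, beside 21.4% over all genes, including Mxi1 (4560 bp), Mnt (4164 bp), Mxd4 (2514 bp) and Max (1588 bp), and 0 were DOWN. Mxi1, Mnt and Rb1 had further TSSs in unchanged regions. The last list joined the GADD45 partners Map3k4 and Gadd45gip1 with 5 genes of arrest under stress. Of these 5, 4 were UP: Ddit3 (6277 bp), which encodes CHOP, Atf3 (5516 bp), Ppp1r15a (5476 bp), also called GADD34, and Trib3 (1846 bp). Ddit4 and Gadd45gip1 had no TSS in a region, Map3k4 was unchanged, and 0 of the 7 were DOWN. Of the 5 genes of the whole list with a TSS in a region, the 4 UP ones were 80.0%, beside 21.4% over all genes. These lists were drawn up with the biology of ER stress known and are given as counts, with no test.

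**Figure D4:**
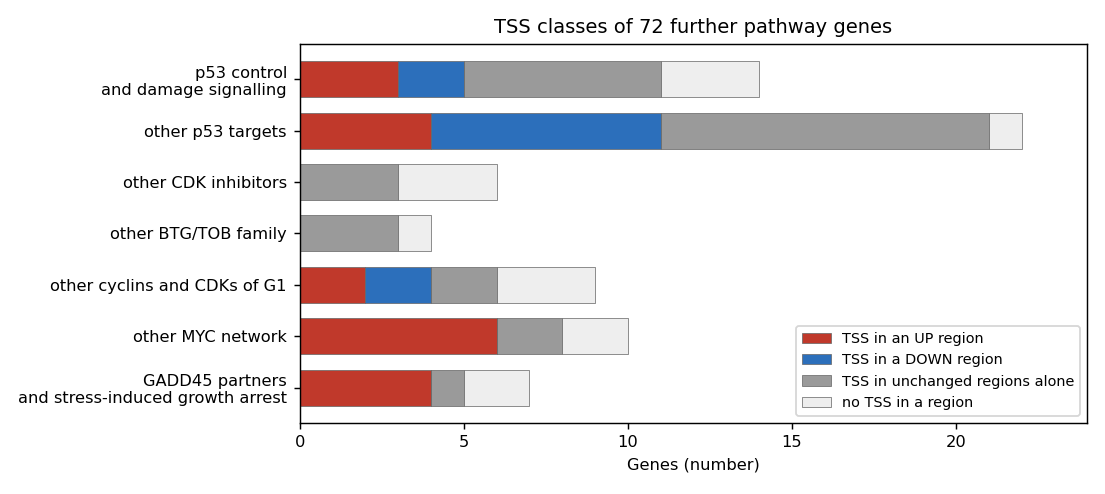
Number of genes in each of 7 pathway lists (72 genes) by the list of the H3K27ac region that holds a TSS. Of the 22 other p53 targets 7 are DOWN and 4 UP, whereas the MYC network and the stress-induced arrest list hold 6 and 4 UP genes and 0 DOWN.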

How the data were processed

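Each of the 3 deposited lists gives chromosome, start, end and a region name on mm10, with no value of measurement. According to the study's methods and the submitters' processing notes, the authors aligned reads with Bowtie 2, called broad peaks with MACS2 on pooled libraries, counted reads in short bins with csaw, normalised them, tested thapsigargin against DMSO with mice paired, and combined bins per peak. Regions were listed as UP or DOWN by FDR and the balance of rising and falling bins, and significant regions of mixed direction were discarded. The 3 H3K27ac libraries per treatment come from separate preparations, and no value of one library was used here.

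From these lists, regions (starts set to 1-based) were overlapped by at least 1 base with the TSSs of 141767 GENCODE M21 transcripts and counted when their edge lay within 50 kb of a TSS. The genome of the reference given was GRCm38.p6, whose primary sequence is that of mm10. The study's own annotation release may differ. Motifs were searched in RefSeq promoters and in all 32196 regions. Code in Python (3.11.15) with pandas (2.3.3), numpy (2.4.6), scipy (1.17.1) and pysam (0.24.0) was used and tested on simulated regions. No test between groups was possible, and counts are given beside the same counts over all genes. All 10 members are described. Of the wider lists, genes DOWN at a TSS and up to 4 UP genes by region width are named, and Atm, Atr, Chek1 and Mdm4 were added after their values were seen. The members and lists were chosen with earlier results of these data known. Protein identity between paralogs was not analysed here.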

Additional observations from a re-analysis of the deposited data

How the results depend on the processing

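Of 54 values under alternative settings, 51 were counts within 1.5 times of the value reported or shares within its interval. A count at exactly 1.5 times was kept. The interval for shares was wide, 32.3% to 83.7%, so a share could move far and still be kept. These settings were protein-coding transcripts or the 5′ end of the gene alone, 500 bp covered on each side of a TSS or 1 kb of padding, regions of at least 1 kb, other distances, regions nearest to a member, and base pairs in place of regions. Leaving out the regions around Gadd45a was added after the values were seen. There, 4 UP regions were left in place of 9, an exception. The UP share fell below the DOWN share, at 40.0%, yet it was kept because it lay within the interval. The other exceptions came from distance: 14 UP regions lay within 100 kb against 9 within 50 kb, and 3 DOWN regions within 10 kb against 6. The counts of 2 UP and 2 DOWN genes held in every setting run. Cdkn1a left the unchanged group, which then had 4 genes, when the 5′ end alone or 500 bp on each side was used. Under the other settings the UP share ran from 52.8% (base pairs) to 66.7%. No paired analysis was possible because the lists hold nothing measured in a single library, so leaving out a replicate or applying a stricter FDR was not possible either.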

Other observations

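Widening the distance to 100 kb changed the surroundings of some genes more than others. Myc then had 3 UP regions and 1 DOWN region, where it had 1 of each within 50 kb, and Btg1 had 3 UP regions in place of 1. Gadd45a gained 1 UP region and 5 unchanged ones, so that its surroundings held UP regions alone within 50 kb but not within 100 kb. Trp53 and Gadd45g still had no changed region. The other protein-coding genes with at least 5 UP regions and no other region within 50 kb were Aig1, Ccdc71l, Olfr763 and Olfr9. Ccnd1 was joined by Ccnd2 as a D-type cyclin with no TSS in a region, while Ccnd3 had one in an unchanged region of 984 bp.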
